A study of Mus musculus with 4 samples.

Results

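The 10 genes described here encode inhibitors of MAP kinase signalling. Most act on the MAP kinase ERK or on the steps that lead to it, and some prefer the MAP kinases p38 and JNK. The MAP kinase phosphatase genes are Dusp1, Dusp2, Dusp4, Dusp5, Dusp6 and Dusp10. The genes of the Sprouty and SPRED adaptors are Spry1, Spry2, Spred1 and Spred2. The 10 genes were taken by symbol from the 28334 rows of the deposited table, where each stood on 1 row. All 10 passed the filter on low values that left 13685 genes for testing. The messenger RNA came from Foxp3-expressing regulatory T cells (Treg), a CD4+ population that holds immune responses in check. These cells were sorted as CD4+ YFP+ from the spleen and peripheral lymph nodes of untreated C57BL/6 mice, for which the sources used here give no age. Every mouse carried the allele Foxp3 YFP-Cre/0, written as a single copy, which couples YFP fused to Cre recombinase to the Foxp3 gene. The 2 WT libraries came from mice with Pdpk1 +/+, and the 2 KO libraries from mice with floxed Pdpk1 (FL/FL). YFP marks cells that express this fusion rather than cells that have lost Pdpk1.

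ERK is switched on by a chain from the small GTPase RAS through the kinases RAF and MEK, which in T cells is fed by the antigen receptor. Active ERK raises the transcription of its own inhibitors. Dual-specificity phosphatases take phosphate off the activation loop of ERK, p38 or JNK, while Sprouty and SPRED proteins act further up, between receptors, RAS and RAF. Transcripts of several of these genes are therefore used as readouts of MEK and ERK activity. PDK1, the product of Pdpk1, activates AKT and other kinases, among them RSK, which ERK also activates.

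Promoter sequences are shown for 4 of the genes, Dusp5 and Spred1 as genes that were higher in the KO libraries and Dusp1 and Dusp10 as genes that were lower. Each run holds the 250 bases before the annotated RefSeq start (GRCm38.p6), 5′ to 3′ on the strand of the gene. Capitals mark the letters of 5 searched motifs, and a run without capitals holds none of them. RefSeq starts can differ from those of the GENCODE annotation, from which the gene positions further below were taken. The runs of Dusp1 and Dusp10 lie inside the GENCODE spans of these genes. The positions are chr19:53528895-53529144, plus strand, for Dusp5; chr2:117120821-117121070, plus strand, for Spred1; chr17:26508473-26508722, minus strand, for Dusp1; and chr1:184034131-184034380, plus strand, for Dusp10.
Dusp5: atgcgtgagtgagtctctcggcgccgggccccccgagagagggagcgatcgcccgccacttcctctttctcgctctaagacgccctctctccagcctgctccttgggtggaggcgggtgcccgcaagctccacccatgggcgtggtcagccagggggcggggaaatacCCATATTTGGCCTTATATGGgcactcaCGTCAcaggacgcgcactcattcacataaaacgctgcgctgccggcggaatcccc
Spred1: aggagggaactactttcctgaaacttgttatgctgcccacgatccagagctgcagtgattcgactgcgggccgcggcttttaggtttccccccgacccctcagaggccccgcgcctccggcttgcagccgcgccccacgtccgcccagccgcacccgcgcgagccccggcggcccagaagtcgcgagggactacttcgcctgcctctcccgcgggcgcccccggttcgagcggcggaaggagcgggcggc
Dusp1: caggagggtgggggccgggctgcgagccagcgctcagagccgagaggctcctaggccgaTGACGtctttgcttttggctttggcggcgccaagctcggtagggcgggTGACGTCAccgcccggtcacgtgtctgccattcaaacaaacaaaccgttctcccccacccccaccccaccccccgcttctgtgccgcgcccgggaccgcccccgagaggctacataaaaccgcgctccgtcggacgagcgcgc
Dusp10: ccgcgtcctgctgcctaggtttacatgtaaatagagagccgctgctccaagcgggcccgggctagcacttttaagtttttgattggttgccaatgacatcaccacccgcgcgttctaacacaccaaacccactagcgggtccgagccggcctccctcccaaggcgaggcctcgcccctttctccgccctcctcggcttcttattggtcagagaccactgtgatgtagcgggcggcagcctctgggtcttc

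The CArG box is bound by the serum response factor SRF. The motifs were this box, the cyclic AMP response element TGACGTCA, its shorter form TGACG, the AP-1 site TGANTCA and the ETS motif CCGGAA. They were searched on both strands of windows from 250 bases before to 50 bases after the start, and a TGACGTCA match also counts as TGACG. RefSeq windows were at hand for 9 of the 10 genes, all but Dusp4. Dusp5 carried 2 CArG boxes side by side, from -82 to -73 and from -72 to -63 relative to the first transcribed base, which is counted as 0. A CArG box was in 1.63% of the 32851 mouse windows, and 2 or more were in 0.02% (6 windows). At some CArG boxes SRF works with ETS factors that ERK phosphorylates. The Dusp5 window held no match to CCGGAA, but ETS sites with other letters were not searched. Binding was not measured. Dusp1 was the only one of the 9 with TGACGTCA, from -143 to -136, a motif held by 1.79% of all windows. The shorter TGACG was in 4 of the 9, in Dusp1, Dusp2, Dusp5 and Spred2, against 20.8% of all windows. AP-1 sites were in 0 of the 9 (7.81% of all windows). The letters CCGGAA were in Spry2 alone (14.9% of all windows), after the start. The 9 windows were rich in G and C, at 57.0% to 72.3% against a median of 52.7% over all windows. These matches describe letters in a window and do not show binding.

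The genes did not move together. In the libraries labelled KO, 5 of the 10 genes were called higher and 3 lower, with an adjusted p under 0.05 in limma on the deposited log2 values, and 2 were not called. Among all tested genes 27.1% were called higher and 20.3% lower, 47.4% in all. The genes that rose most were Spry2, Spred1 and Dusp5, by 1.36-fold, 1.31-fold and 1.29-fold. Dusp4 fell most, 1.27-fold, followed by Dusp10 at 1.13-fold, and Dusp6 was not called. KO lay above WT without overlap for 7 of the 10 and below WT for 3, which was so for 39.9% and 33.1% of all tested genes (73.0% in all). The log2 fold changes of the 10 had a median of 0.10, against 0.015 over all tested genes.

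Pdpk1 had log2 values of 11.71 and 11.76 in WT and 11.78 and 11.73 in KO (log2 fold change 0.02, adjusted p = 0.612 in limma), so the groups overlapped. The labels do not say which exons are flanked by loxP sites, so the genotypes are named here as labelled. Treg markers were present in all libraries, with Foxp3 at 11.38 to 11.47 on the log2 scale. Summed linear values of 8 B cell markers were 513 and 462 in WT and 381 and 368 in KO, where 2 (Cd79a and Cd22) were called lower and 0 higher. The sums of 7 Treg markers were 31162 and 30802 in WT and 33070 and 33202 in KO, without overlap, and 3 of the 7 (Il2ra, Ctla4 and Tnfrsf18) were called higher and 1 (Ikzf2) lower. Sums of 7 myeloid, 2 CD8 T cell, 6 NK cell and 6 erythroid markers overlapped between the groups, at 894 to 981, 268 to 285, 92.2 to 120 and 81.0 to 92.8. Within these lists the NK cell gene Klrb1c was called lower, by 2.07-fold (limma adjusted p = 0.00989), the myeloid gene Cd68 was called lower and Cst3 higher (limma adjusted p = 0.0462 and 0.0141), and 0 genes of the CD8 T cell and erythroid lists were called. Their part in the results below was not tested. In these bulk samples fewer cells of a type and less RNA per cell cannot be told apart. Nothing says that libraries of a group came from separate animals, so p-values measure only the spread between these libraries, which may be technical.

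**Figure D1:**
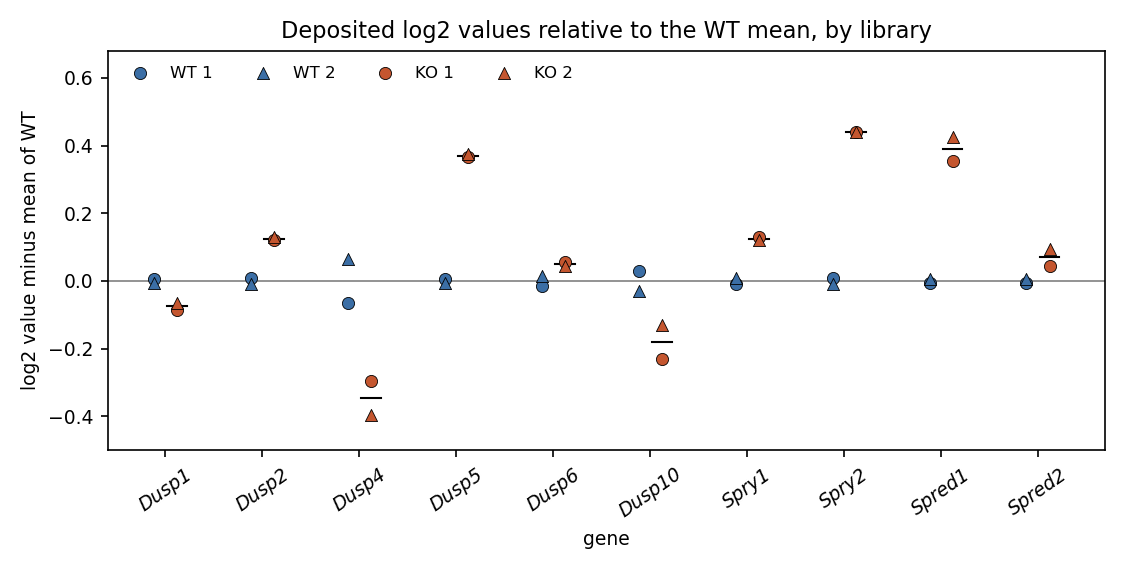
Deposited log2 value of each of the 10 genes in each library (vertical axis, log2 units, after subtracting the mean of the 2 WT libraries). Circles are libraries numbered 1 and triangles libraries numbered 2, in blue for WT and orange for KO, and the short bar is the KO mean. Spry2, Spred1 and Dusp5 lie furthest above 0 in KO, Dusp4 lies furthest below, and Dusp4 and Dusp10 have the widest spread within groups.

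The inducible phosphatases of the nucleus, encoded by Dusp1, Dusp2, Dusp4 and Dusp5, split in direction. Dusp5, whose product dephosphorylates ERK and holds it in the nucleus, had log2 values of 10.92 and 10.91 in WT and 11.28 and 11.29 in KO. Both KO libraries were above both WT libraries, with a gap of 0.36 between the nearest libraries and of 0.01 within each group. Dusp5 rose 1.29-fold (log2 fold change 0.37, SE 0.01, 95% interval 0.33 to 0.41, limma adjusted p = 0.00434). The gene lies on the plus strand of chromosome 19 (GRCm38, the assembly of mm10, 53529109 to 53542431) and has 4 exons. An annotated antisense gene shares 547 exon bases with it, and the use of strand in counting was not given, so reads of that gene could be included.

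Dusp4, whose product acts on ERK and JNK, went the other way. Its log2 values were 11.34 and 11.47 in WT and 11.11 and 11.01 in KO. The KO libraries were lower, and the gap of 0.23 between the nearest libraries exceeded the gaps of 0.13 and 0.10 within WT and KO. Dusp4 fell 1.27-fold (log2 fold change -0.345, SE 0.06, 95% interval -0.53 to -0.16, limma adjusted p = 0.0223). It lies on the plus strand of chromosome 8 (34807297 to 34819894).

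Dusp1 and Dusp2 changed little. Dusp1 (chromosome 17, 26505590 to 26562128), an immediate early gene whose product prefers p38 and JNK, had log2 values of 10.89 and 10.88 in WT and 10.80 and 10.82 in KO. It fell 1.05-fold (log2 fold change -0.075, SE 0.015, limma adjusted p = 0.0264). Dusp1 also answers to stress and handling of cells, so a list of 16 dissociation and stress genes is given beside it. Their summed linear values overlapped, at 26416 and 25580 in WT and 26144 and 27172 in KO. Of the 16, 5 were called higher and 3 lower, beside 27.1% and 20.3% of all tested genes. The heat shock genes Hspa1a and Hspa1b had the lowest log2 fold changes of that list, at -1.255 and -1.265. Their part in the Dusp1 result was not tested. Dusp2 (chromosome 2, 127336159 to 127338376), a phosphatase of activated lymphocytes, had log2 values of 10.78 and 10.76 in WT and 10.89 and 10.90 in KO. It rose 1.09-fold (log2 fold change 0.125, SE 0.015, limma adjusted p = 0.0104). With fold changes adjusted for the length and level of transcripts, a step chosen after seeing the data, this log2 fold change was 0.02 (adjusted p = 0.43) and that of Dusp1 was -0.17 (adjusted p = 0.00864).

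Dusp6 (chromosome 10, 99263231 to 99267489), encoding the cytoplasmic phosphatase selective for ERK, is among the transcripts most used to read ERK activity. Its log2 values were 9.69 and 9.72 in WT and 9.76 and 9.75 in KO. Both KO libraries were above both WT libraries, by 0.03 between the nearest, the same as the gap within WT. The log2 fold change of 0.05 did not pass the test (95% interval -0.005 to 0.105, limma adjusted p = 0.109), an interval that ends at a 1.075-fold increase. Scaling moved it closer to 0, to 0.005 after quantile normalization and 0.02 after median centring. The nuclear gene Dusp5 rose by 0.37 in the same libraries.

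Dusp10 (chromosome 1, 184013302 to 184075636) encodes a phosphatase of p38 and JNK rather than ERK. Its log2 values were 10.21 and 10.15 in WT and 9.95 and 10.05 in KO. The KO libraries were lower, with a gap of 0.10 to the nearest WT library, the same as the gap within KO. Dusp10 fell 1.13-fold (log2 fold change -0.18, SE 0.05, limma adjusted p = 0.0463), the call nearest to the threshold among the 10. Without a mean-variance trend in limma the calls of Dusp10 (adjusted p = 0.0671) and Dusp1 (adjusted p = 0.0662) were lost, and without the filter on low values those of Dusp10 (0.108) and Dusp4 (0.0604).

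**Figure D2:**
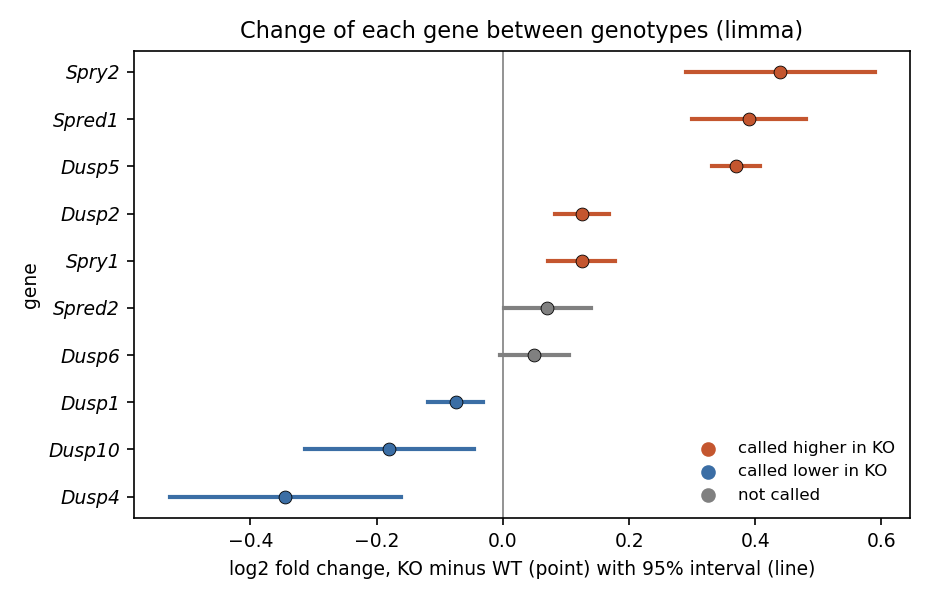
Log2 fold change of each gene between genotypes (horizontal axis, KO minus WT, point) with its 95% interval from limma (line), ordered by size. Genes called higher are orange, genes called lower blue and genes not called grey, and the intervals run from -0.53 at the low end of Dusp4 to 0.59 at the high end of Spry2.

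The Sprouty genes were both called higher, from very different levels. Spry1 (chromosome 3, 37639947 to 37644598), an adaptor that restrains RAS and RAF signalling after receptor activation, had log2 values of 9.34 and 9.36 in WT and 9.48 and 9.47 in KO. It rose 1.09-fold (log2 fold change 0.125, SE 0.02, limma adjusted p = 0.0145; 0.08 after quantile normalization, adjusted p = 0.0415). The gene model Gm42922 on the other strand shares 710 exon bases with Spry1, at log2 values of 2.50 to 2.82. Spry2 (chromosome 14, 105891947 to 105896819), a close relative of Spry1, had log2 values of 3.77 and 3.75 in WT and 4.20 in each KO library. It rose 1.36-fold (log2 fold change 0.44, SE 0.05, 95% interval 0.29 to 0.59, limma adjusted p = 0.0101), the largest change of the 10. Its linear values were 13.5 to 13.6 in WT and 18.4 in KO, little above the minimum of 10 for testing, and with a pseudocount of 10 its log2 fold change was 0.27.

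Of the SPRED genes, Spred1 was called and Spred2 was not. Spred1, whose product brings the RAS inhibitor neurofibromin to the membrane, had log2 values of 9.13 and 9.14 in WT and 9.49 and 9.56 in KO. Both KO libraries were above WT, by 0.35 between the nearest. Spred1 rose 1.31-fold (log2 fold change 0.39, SE 0.03, 95% interval 0.30 to 0.48, limma adjusted p = 0.00653). It lies on the plus strand of chromosome 2 (117121374 to 117182279) and has the longest transcript of the 10, at 6016 bases. Spred2 (chromosome 11, 19924375 to 20024026), of the same family, had log2 values of 9.85 and 9.86 in WT and 9.90 and 9.95 in KO. Its log2 fold change of 0.07 did not pass the test (95% interval 0.001 to 0.139, limma adjusted p = 0.0877).

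Levels were compared between genes only as linear values per kilobase of transcript, with the longest coding transcript in GENCODE M21 as the length. Dusp2 was highest, at 1072 to 1087 in WT and 1174 to 1182 in KO. Dusp1, Dusp5 and Dusp4 followed with means over the 4 libraries of 926, 895 and 885, and their ranges over libraries overlapped. These 4 nuclear phosphatase genes stood above 93.4% to 96.4% of the 13322 tested genes with a length. Dusp10 (391), Dusp6 (304), Spry1 (246), Spred2 (213) and Spred1 (108) came next, each with a range apart from its neighbours. Spry2 was last at 7.6, above 8.2% of tested genes. The order within WT differed from that within KO in the middle of the nuclear group. Dusp4 was the second in WT (991) and the fourth in KO (780), and Dusp5 was the fourth in WT (781) and the second in KO (1009). With the length of all annotated exons in place of the transcript, Dusp1 came after Dusp5 and Dusp4 in the overall order.

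**Figure D3:**
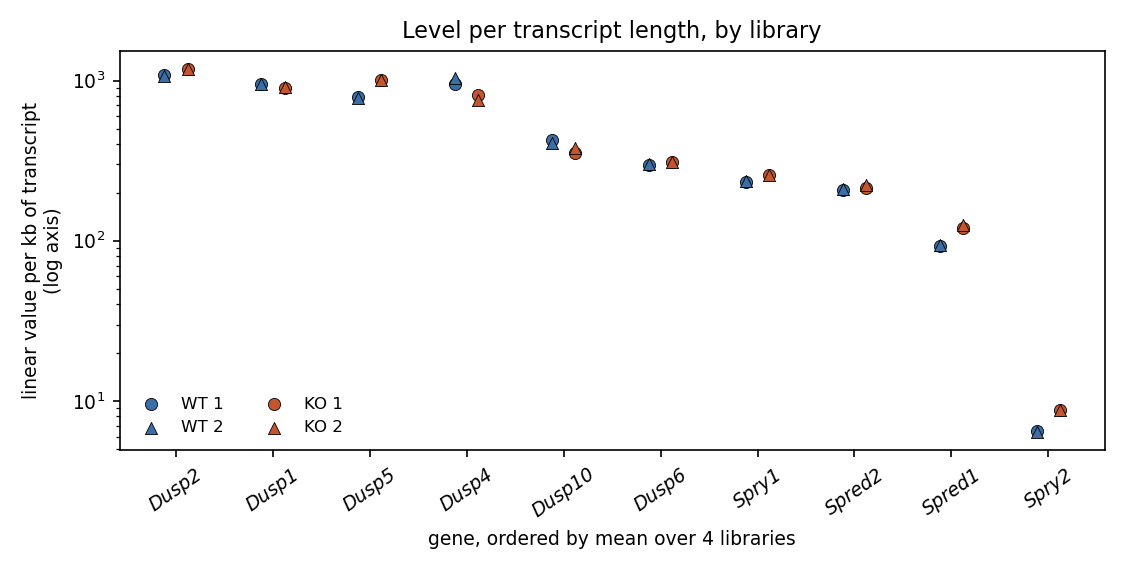
Linear value per kilobase of transcript for each gene and library (vertical axis, log scale), ordered by the mean over the 4 libraries from Dusp2 at 1129 to Spry2 at 7.6. Circles are libraries numbered 1 and triangles libraries numbered 2, in blue for WT and orange for KO.

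The changes of Dusp5 and Dusp4 exchanged their order within each library. On the log2 scale per kilobase, Dusp5 minus Dusp4 was -0.27 and -0.41 in WT and 0.32 and 0.43 in KO. Dusp4 was thus the higher of the pair in both WT libraries and Dusp5 in both KO libraries, and the mean difference moved by 0.715. Spred1 minus Spred2 was -1.16 in each WT library and -0.85 and -0.83 in KO. Spred1 stayed below Spred2, but by less. Dusp5 minus Dusp6, the nuclear against the cytoplasmic phosphatase of ERK, was 1.41 and 1.37 in WT and 1.70 and 1.72 in KO. These pairs were chosen with the values known, so no test is given, and an exact permutation test of 2 against 2 libraries cannot give a p below 0.333. Such differences do not depend on the scaling of a library.

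Summed over the 6 phosphatase genes, the linear level per kilobase was 4490 and 4541 in WT and 4546 and 4543 in KO. WT 1 was lowest, and WT 2 lay next to the KO libraries. The shares of the genes in this sum differed between the groups. Dusp5 made up 17.4% and 17.1% of it in WT and 22.1% and 22.3% in KO. Dusp4 made up 21.1% and 22.8% in WT and 17.7% and 16.6% in KO. The share of Dusp6 was 6.6% in each WT library and 6.8% in each KO library.

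**Figure D4:**
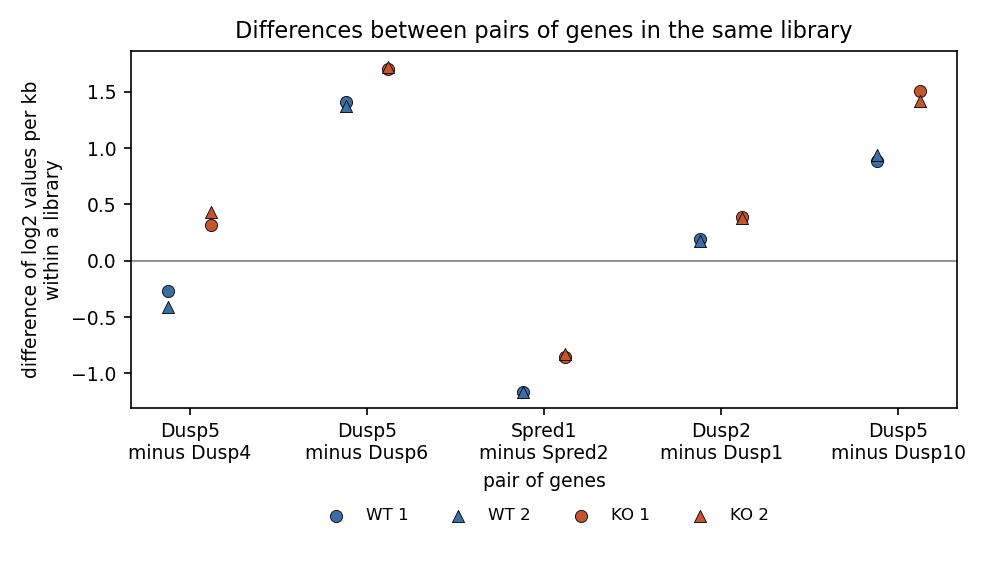
Difference of log2 values per kilobase between the genes of a pair in the same library (vertical axis), with blue for WT, orange for KO, circles for libraries numbered 1 and triangles for libraries numbered 2. Dusp5 minus Dusp4 lies below 0 in both WT libraries and above 0 in both KO libraries, and the other pairs shift without crossing 0.

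The tested genes most like a member were found by the root mean square distance of the 4 library values, each gene centred on its mean, among 11618 other coding genes. Nearest to Spry2 were Sass6, a centriole assembly gene (distance 0.0071), Plpp2, a lipid phosphate phosphatase (0.0087), and Slamf6, a lymphocyte receptor (0.01). Nearest to Dusp4 were the F-box gene Fbxo17 (0.0083), the secretory pathway gene Sec16b (0.0122) and Morn1 (0.013). This likeness rests on 4 libraries.

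Other phosphatases of the family were mostly not called, where 47.4% of all tested genes were called in either direction. Of 4 further MAP kinase phosphatase genes, 1 was called higher, Dusp16, whose product prefers JNK and p38. Dusp16 had log2 values of 8.94 and 8.99 in WT and 9.39 and 9.34 in KO and rose 1.32-fold (0.40, SE 0.03, limma adjusted p = 0.00653), opposite in direction to Dusp10. Among 9 tested atypical dual-specificity phosphatase genes, 1 was called higher and 1 lower. Dusp14, known to restrain T cell receptor signalling through TAB1, had log2 values of 7.46 and 7.45 in WT and 8.16 and 8.22 in KO and rose 1.66-fold (limma adjusted p = 0.00545). Dusp23, at 5.73 and 5.77 in WT and 5.26 and 5.24 in KO, fell 1.41-fold (limma adjusted p = 0.00832). The remaining Sprouty and SPRED genes were near the floor, with 0 of 2 called by limma and 1 of 2 at an unadjusted p under 0.05. That gene, Spry4, had log2 values of 3.57 and 3.59 in WT and 3.76 and 3.82 in KO (log2 fold change 0.21, adjusted p = 0.0508). Spred3 overlapped between the groups (0.14, adjusted p = 0.358).

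Further inhibitors of RAS and ERK included genes called in both directions. Of 18 tested, 5 were called higher and 7 lower, beside 27.1% and 20.3% of all tested genes, and the median of the log2 fold changes was -0.055. Rasal1, a GTPase-activating protein of RAS, had log2 values of 8.60 and 8.57 in WT and 7.71 and 7.73 in KO. It fell 1.82-fold (log2 fold change -0.865, SE 0.03, limma adjusted p = 0.00434), a larger change than any of the 10 feedback genes. Dok3, an adaptor gene of the Dok family, fell 1.53-fold at a low level (-0.61, limma adjusted p = 0.00949). The ubiquitin ligase gene Cblb fell 1.17-fold and Rasa2, another GTPase-activating protein, 1.09-fold (limma adjusted p = 0.0058 and 0.00923).

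In the chain from RAS to ERK, 9 of 27 tested genes were called higher and 6 lower, around a median of 0.025 on the log2 scale. Of all tested genes, 27.1% were called higher and 20.3% lower. Hras rose 1.17-fold, while Braf and Rasgrp2, an exchange factor of RAS-like GTPases, each fell 1.165-fold (limma adjusted p = 0.0065, 0.00768 and 0.00608). Mapk3, which encodes ERK1, and Map2k1, which encodes MEK1, are named to complete the chain and not by the rule. They had log2 fold changes of 0.08 and 0.02 and were not called (limma adjusted p = 0.227 and 0.405). In the p38 and JNK chain, 4 of 18 were called higher and 4 lower, beside the same shares of all tested genes. Mapk12, a p38 kinase gene, fell 1.53-fold and Map2k6, an activator of p38, fell 1.40-fold (limma adjusted p = 0.00701 and 0.00707). Taok2, a kinase upstream of p38 and JNK, fell 1.165-fold, and Mapkapk2, a kinase that p38 activates, rose 1.197-fold (limma adjusted p = 0.00642 and 0.00949).

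Among 18 other transcripts that ERK induces, 6 were called higher and 1 lower, beside 27.1% and 20.3% of all tested genes. The median was 0.05 on the log2 scale. Maff, a small MAF factor, had log2 values of 7.62 and 7.49 in WT and 8.29 and 8.44 in KO and rose 1.75-fold (log2 fold change 0.81, SE 0.08, limma adjusted p = 0.00809). The pseudokinase gene Trib1 rose 1.61-fold, Myc 1.22-fold and the immediate early gene Ier2 1.14-fold (limma adjusted p = 0.00434, 0.00573 and 0.00923). The Ier2 call was lost under the adjustment for length and level (0.08, adjusted p = 0.0528). The called lower gene, named because it was alone, was Ccnd1, encoding cyclin D1. Its log2 values were low, at 4.26 and 4.10 in WT and 3.48 and 3.52 in KO. The KO values were little above the minimum for testing. The immediate early genes Egr1 and Fos, named as the best-known of the list, had log2 fold changes of 0.125 and -0.085 (limma adjusted p = 0.0221 and 0.0514). Over these 7 lists together, 26 of 96 tested genes were called higher and 19 lower (46.9% called), close to the 47.4% of all tested genes. With each library centred on its median, 18 of the 96 were called higher and 24 lower.

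**Figure D5:**
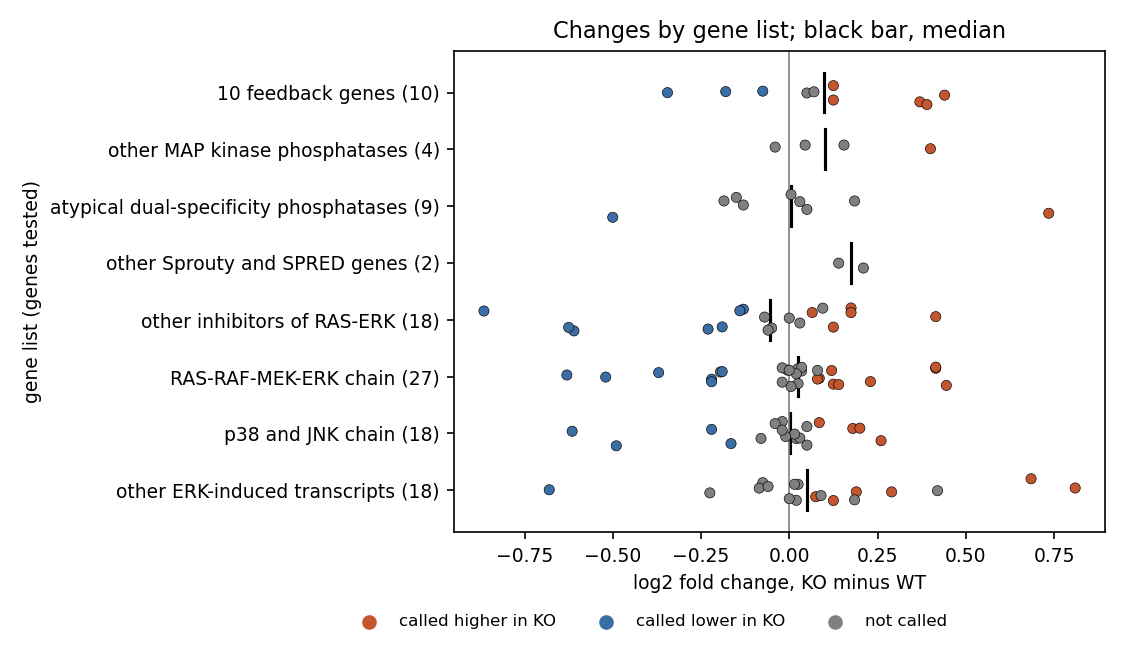
Log2 fold change (horizontal axis, KO minus WT) of each tested gene in the 10 feedback genes and the 7 other lists, with the number tested in brackets. Orange points were called higher, blue lower and grey not called, and the black bar is the median of the list. The medians lie between -0.055 and 0.175, with genes called in both directions in all but the other MAP kinase phosphatases and the other Sprouty and SPRED genes.

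The precision of every call above was limited by the deposited values. Within-group deviations of WT and KO libraries of the same number ran against each other across the tested genes (Pearson's r = -0.907 across genes, a description), with an SD over genes of 0.0154 for the half-sum of the paired deviations against 0.0722 and 0.0705 for the deviations within WT and KO. Whether the values were adjusted for replicate number before deposit is not given in the sources used here. If they were, the 2 residual degrees of freedom overstate the evidence, and all SEs and p-values above are too small. When limma was given a term for the replicate number, 0 of the 10 genes were called at adjusted p under 0.05, and 6 of the 10 had an unadjusted p under 0.05. With any 1 library left out, limma also called 0 of the 10, with 6 to 8 of them at an unadjusted p under 0.05, and 0 of all 13685 tested genes. The directions of the 10 genes could not change in these fits, because KO and WT did not overlap for any of them.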

How the data were processed

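Poly-A RNA of 4 libraries of sorted Treg cells was sequenced, 2 WT and 2 KO. The table holds log2 normalised counts, computed by the authors, per the file headers and file name. The submitters' processing notes name STAR, DESeq2 and mm10 without versions. Annotation, transform, counter and strand setting are not given in the sources used here. Depth is unknown, so counts were not modelled.

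Tested genes had a linear value (2 to the power of the deposited log2 value) of at least 10 in at least 2 libraries, 13685 of 28334 rows. Rows with repeated symbols or numbers for symbols stayed out of the lists. The test was limma 3.58.1 (R 4.3.3) with a mean-variance trend and genotype as its term, two-sided, adjusted by Benjamini-Hochberg across the tested genes, and was tested on simulated data. Positions and lengths came from GENCODE M21 (GRCm38) and promoters from RefSeq (GRCm38.p6), read with Python 3.11.15.

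The 10 genes and the lists were chosen with earlier results of these data known. Named genes were the 10, Pdpk1, Foxp3, in each list the called genes with the smallest p (at most 4, or 2 uncalled ones), and the 3 genes nearest in pattern to the members with the highest and lowest fold change. One gene that the rule names is not reported here. The alternatives are given in the closing section; a pseudocount of 10, array weights and a robust prior were among them, and the crossed pairing and the loess adjustment for length and level were added after seeing the data.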

Additional observations from a re-analysis of the deposited data

How the results depend on the processing

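The 10 genes kept their direction in all 159 values from 16 alternatives, but 52 of these lost the call. Most of these alternatives could not reverse a direction, because KO and WT did not overlap for any of the 10. Only quantile normalization, median centring and the length and level correction could have done so. Labels give both groups the numbers 1 and 2 without stating a pairing. With the replicate block, 0 members were called higher or lower, 0 of all tested genes and 0 genes of the other lists (the lowest adjusted p was 0.0964; 4881 genes had an unadjusted p under 0.05, and 2203 an adjusted p under 0.1, Dusp5 and Spred1 among them). Without each library in turn, all of these counts were 0 (range 0 to 0), with smallest adjusted p of 0.0817 to 0.0961 and 5225 to 5669 genes at unadjusted p under 0.05. Log2 fold changes then ran from -0.41 to -0.28 for Dusp4, 0.365 to 0.375 for Dusp5 and -0.23 to -0.13 for Dusp10. The crossed pairing, suggested by the correlation of -0.907, called 5282 genes higher and 4446 lower, and 5 and 3 members. Pdpk1 (0.02, limma adjusted p = 0.025) and Foxp3 (0.045, limma adjusted p = 0.0268) were called higher there. That pairing was picked because it takes up most of the spread within groups, so its added calls were built in and lend no weight. With a limit of 1.2-fold, 1 member was called higher (Dusp5) and 0 lower, 401 and 331 of all tested genes, and 3 and 2 genes of the other lists. Without a filter and without a trend, 1 member each was called lower. With the minimum of 100, under which Spry2 was not tested, 1788 genes were called lower, 10 of them in the other lists. The length and level correction called 15 genes of the other lists higher. Pdpk1, not called in the main fit, was at -0.027 after quantile normalization, -0.01 after median centring and -0.005 to 0.045 without single libraries, and Foxp3 at -0.016 after the length and level correction. The cause of these changes was not tested.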
